A study of Homo sapiens with 6 samples.

Results

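The MCM family comprises the genes of the minichromosome maintenance proteins, and 10 of them were taken by their symbols from the 23228 genes of the deposited tables: MCM2, MCM3, MCM4, MCM5, MCM6, MCM7, MCM8, MCM9, MCM10 and MCMBP. All 10 passed the filter on low counts and were tested. RNA-seq was performed on cells labelled Hep3B, an established human hepatocellular carcinoma line. The 3 control libraries came from cells with a non-targeted shRNA, and the 3 libraries labelled PELP1-KD from cells with a lentiviral shRNA against PELP1. Both groups were grown in RPMI and carried lentiviral shRNA, and the labels describe the PELP1-KD cells as pooled stable clones kept under puromycin, which they do not state for the control cells. By title these libraries carry the first shRNA, whereas the protocol lists both of the study's shRNAs. Nothing in the labels tells whether the 3 libraries of a group are separate cultures, so p-values measure the spread between these libraries, which may be technical.

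MCM2 to MCM7 encode the 6 different subunits of a ring that is loaded onto replication origins in G1 phase by the origin recognition complex, CDC6 and CDT1. In S phase the ring is joined by CDC45 and the GINS proteins and becomes the helicase that unwinds DNA at the replication fork. MCM8 and MCM9 form a separate helicase that acts in homologous recombination, MCM10 is a replication factor needed when origins fire, and MCMBP binds MCM proteins and takes part in their assembly and removal. MCM genes are known targets of the E2F transcription factors, and their proteins mark cycling cells, in liver tumours among others.

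Reads on genes ranged from 26758180 to 34456393 per library. The 10 liver markers examined, among them ALB, AFP and HNF4A, were present in all 6 libraries, and of the markers of other cells CDH5 (endothelium) had 0 reads throughout, VWF (endothelium) at most 3, and CD3E and PTPRC (blood) at most 5 in any library. The endothelial marker PECAM1 had 52 to 74 reads in every library and was not called (adjusted p = 0.656, edgeR). The summed level of the 3 stromal markers was higher in PELP1-KD (34 to 35.5 TPM, which is reads per exon length scaled to 1000000 per library) than in control (18.8 to 21.1 TPM), through COL1A2 and LUM, while DCN had at most 4 reads, and the 3 blood markers were lower (3.42 to 3.63 against 5.69 to 7.60 TPM), mostly through CD14. Their part in the results for the MCM genes was not tested. PELP1 itself had 4893, 4914 and 5102 normalized reads (reads scaled for library size) in control and 4421, 4825 and 4840 in PELP1-KD libraries. The values of the groups did not overlap, but the log2 fold change of −0.08 (SE 0.04, adjusted p = 0.101, edgeR) was not called. PELP1 was called with the replicate number as a block (adjusted p = 0.0106) and without replicate 3 of PELP1-KD (−0.10, adjusted p = 0.0180, edgeR), and its log2 fold change was −0.04 without replicate 1 of PELP1-KD (adjusted p = 0.424, edgeR). These values concern RNA only. The paper reports reduced PELP1 protein by Western blotting in Hep3B cells with its shRNAs, which reads do not measure. The groups are called as labelled, and higher or lower always refers to the labelled groups.

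RefSeq promoter sequences were matched for 8 of the 10 genes, all but MCM4 and MCM5. The sequences of the genes that moved furthest apart, MCM3 (lower in PELP1-KD) and MCM6 (higher), are shown here because the MCM genes are known E2F targets. Each run covers the 250 bases before the annotated start of transcription, on the minus strand of GRCh38.p14. Capitals mark the E2F words TTTCCCGC, TTTGGCGC, TTTCGCGC and TTTGCCGC on either strand, which overlap each other in MCM6.
MCM3, chr6:52284743-52284992: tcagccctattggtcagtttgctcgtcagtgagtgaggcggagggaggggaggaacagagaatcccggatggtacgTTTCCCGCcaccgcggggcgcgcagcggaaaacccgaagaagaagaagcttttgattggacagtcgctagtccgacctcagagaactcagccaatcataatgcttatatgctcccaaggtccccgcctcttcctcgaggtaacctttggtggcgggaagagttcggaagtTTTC
MCM6, chr2:135876444-135876693: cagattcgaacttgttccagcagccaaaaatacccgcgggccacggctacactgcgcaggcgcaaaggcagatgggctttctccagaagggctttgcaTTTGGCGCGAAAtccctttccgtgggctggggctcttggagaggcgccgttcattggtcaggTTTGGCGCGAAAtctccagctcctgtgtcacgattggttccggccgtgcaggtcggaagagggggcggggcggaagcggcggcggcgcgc
MCM3 had 1 such word from base −174 to −167 and another across the start, from −4 to 4, of which the run above shows the first bases. MCM6 had 4 overlapping words in 2 clusters, from −152 to −141 and from −90 to −79. The start sites of MCM2 (plus strand), MCM3 and MCM7 (minus strand) were chosen for display because an E2F word lies close to the start. Their likeness is therefore no result. MCM8 also held such a word, from base 27 to 34, and is not shown. Runs of 30 bases follow. Here capitals mark the E2F words and the E-box CACGTG, which lies upstream of the E2F word in MCM2 and MCM7.
MCM2, chr3:127598397-127598426: ggtCACGTGaaccactTTTCGCGCGAAAcc
MCM3, chr6:52284728-52284757: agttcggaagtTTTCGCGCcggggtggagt
MCM7, chr7:100101396-100101425: ggtCACGTGgggggcgacgTTTCGCGCcaa
Counted from 250 bases before to 50 after the start, at least 1 of the 4 E2F words was found in 6 of the 8 genes (MCM2, MCM3, MCM6, MCM7, MCM8 and MCMBP), and in 3.31% of all 35116 RefSeq promoters of the same length. In MCMBP the word lay at the second of 2 annotated starts. Here and below, a gene was counted if any of its starts held the letters, whereas the percentages count each promoter separately. CCAAT was found in 6 of the 8 genes (MCM3, MCM6, MCM7, MCM8, MCM9 and MCM10) and in 34.6% of all promoters, and CACGTG in MCM2, MCM7 and MCM8 and in 7.26% of all promoters. MCM3, which was lower in PELP1-KD, MCM6, which was higher, and MCM7, which was not called, thus all held E2F words and CCAAT. These are matches of letters only.

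To examine whether the MCM genes differed between control and PELP1-KD cells, the quasi-likelihood test of edgeR was run across all 14537 tested genes, with Benjamini-Hochberg adjustment. Of the 10 MCM genes, 6 were lower (MCM2, MCM3, MCM4, MCM5, MCM9 and MCMBP), 1 was higher (MCM6) and 3 were not called (MCM7, MCM8 and MCM10) at an adjusted p below 0.05. Over all tested genes, 53.6% were called, with 26.8% lower and 26.8% higher, so that being called does not set these genes apart. None of the 10 passed the study's threshold of 2-fold, which 7.65% of all tested genes passed. The median log2 fold change of the 10 genes was −0.18, and that of all tested genes was 0.00. In bulk RNA, fewer cells in a phase of the cell cycle and less RNA per cell cannot be told apart.

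**Figure D1:**
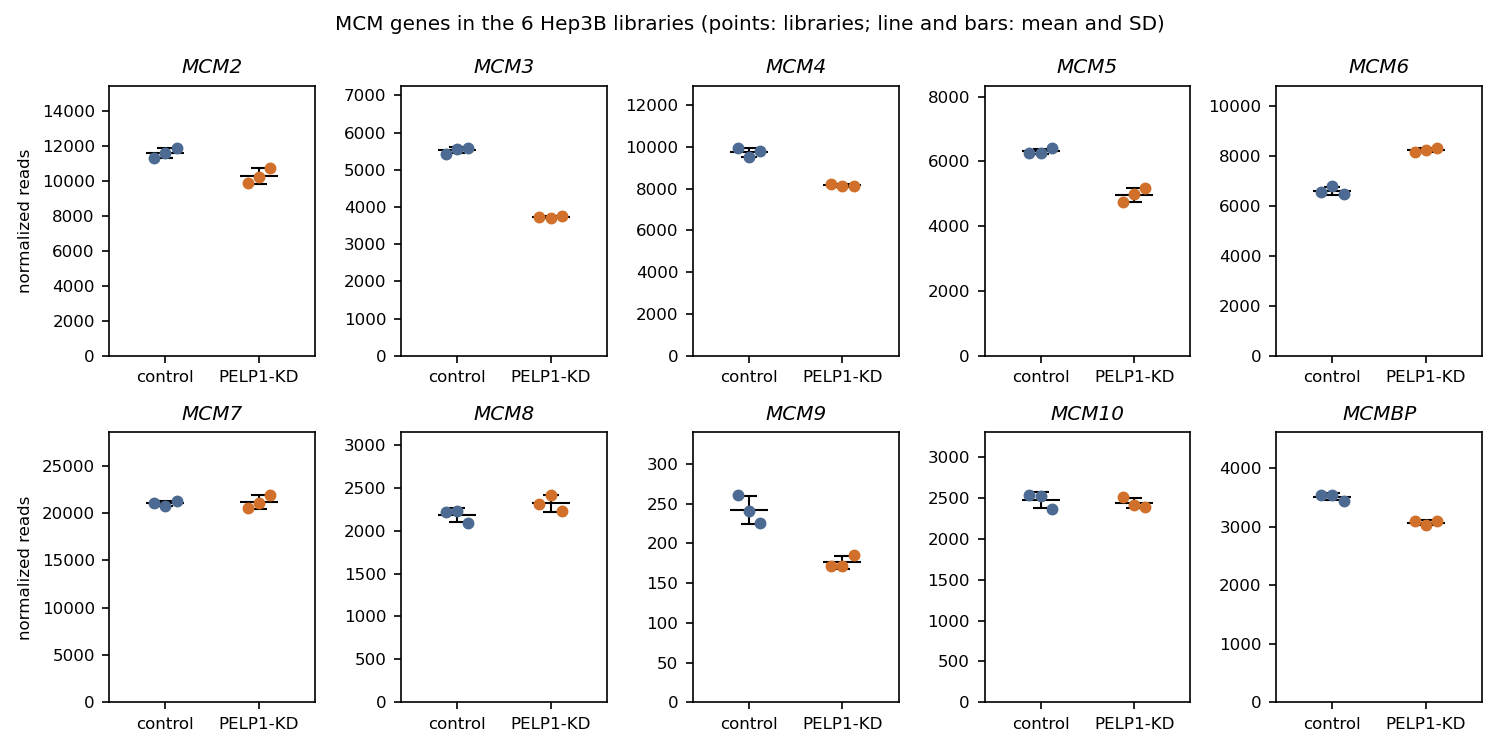
Normalized reads (vertical axes, from 0) of the 10 MCM genes in each of the 3 control (blue) and 3 PELP1-KD (orange) libraries, with the mean and SD in black. MCM3 shows the widest gap downward, from a control mean of 5521 to 3733 normalized reads, MCM6 lies higher in PELP1-KD, and MCM7, MCM8 and MCM10 overlap between the groups.

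Among the subunits of the replicative ring, MCM3 fell most. In hg19 coordinates, MCM3 occupies chromosome 6 from 52128812 to 52149582 (minus strand). It had 5429, 5557 and 5579 normalized reads in control and 3729, 3699 and 3771 in PELP1-KD libraries. All 3 PELP1-KD values lay far below the lowest control value. The means were 5521 ± 81.0 and 3733 ± 36.5 (SD, n = 3 each), so PELP1-KD libraries held 67.6% of the control level, with a log2 fold change of −0.56 (SE 0.04, 95% interval −0.64 to −0.49, adjusted p = 9.12e-11, edgeR). Of all tested genes, 16.8% changed by more than MCM3. MCM3 is one of the genes that the study took from these libraries to represent a pathway by RT-qPCR, so its direction here is not independent evidence.

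MCM5, on chromosome 22 from 35796116 to 35820495, had 6256, 6264 and 6405 normalized reads in control and 4750, 4992 and 5167 in PELP1-KD libraries. The fall to 78.8% of control gave a log2 fold change of −0.34 (SE 0.04, adjusted p = 2.75e-07, edgeR). MCM4, on chromosome 8 from 48872763 to 48890719, had 9922, 9492 and 9781 normalized reads in control and 8223, 8122 and 8116 in PELP1-KD. It fell by 0.26 on the log2 scale (SE 0.03, adjusted p = 2.03e-06, edgeR). MCM2, whose product binds histones as well as forming part of the ring, lies on chromosome 3 from 127317253 to 127341278. It had 11307, 11558 and 11853 normalized reads in control and 9853, 10197 and 10747 in PELP1-KD, a log2 fold change of −0.17 (SE 0.04, adjusted p = 0.000457, edgeR). In these 3 genes the groups did not overlap either, but the gap was narrower than for MCM3, and relative to its level it was narrowest for MCM2.

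MCM6 was the only one of the 10 genes that was called higher. It occupies chromosome 2 from 136597196 to 136634011 (minus strand). It had 6539, 6793 and 6473 normalized reads in control and 8143, 8231 and 8305 in PELP1-KD libraries. Every PELP1-KD value exceeded the highest control value. The means of 6602 ± 169 and 8226 ± 81.0 (SD, n = 3 each) gave a log2 fold change of 0.32 (SE 0.03, 95% interval 0.25 to 0.39, adjusted p = 1.88e-07, edgeR), or 125% of control.

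MCM7, on chromosome 7 from 99690404 to 99699427, had the most reads of the family. It had 21020, 20763 and 21273 normalized reads in control and 20517, 21054 and 21920 in PELP1-KD, and the groups overlapped. Its log2 fold change was 0.01 (SE 0.03, adjusted p = 0.809, edgeR), with a 95% interval from −0.06 to 0.08. MCM7 shares 266 exon bases with AP4M1 on the opposite strand, and the tables were counted by strand. The microRNA genes MIR106B, MIR93 and MIR25 lie within MCM7 on the same strand, but libraries of long RNA hold few reads on such hairpins. MIR25 had 27 to 38 reads per library and was not called (adjusted p = 0.604, edgeR), and MIR106B (1 to 4 reads) and MIR93 (4 to 8 reads) did not pass the filter on low counts.

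Outside the replicative ring, the helicase genes of homologous recombination had fewer reads than any ring subunit. MCM9, on chromosome 6 from 119134612 to 119256327, was the rarest of the 10 genes, with 261, 241 and 226 normalized reads in control and 172, 172 and 186 in PELP1-KD. The groups did not overlap, and MCM9 fell to 72.7% of control, a log2 fold change of −0.46. Its SE of 0.10 is the widest of the family, with a 95% interval from −0.66 to −0.25 (adjusted p = 0.000549, edgeR). Its partner MCM8, on chromosome 20 from 5931298 to 5975831, had 2220, 2228 and 2090 normalized reads in control and 2315, 2417 and 2222 in PELP1-KD. These values overlapped, and MCM8 was not called (log2 fold change 0.09, SE 0.05, adjusted p = 0.109, edgeR). It was called higher with the replicate number as a block (adjusted p = 0.0189) and without replicate 3 of PELP1-KD (log2 fold change 0.12, adjusted p = 0.0206).

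MCM10, on chromosome 10 from 13203554 to 13253104, overlapped between the groups, with 2537, 2520 and 2367 normalized reads in control and 2508, 2418 and 2389 in PELP1-KD. Its log2 fold change was −0.02 (SE 0.04, 95% interval −0.11 to 0.07, adjusted p = 0.702, edgeR). MCMBP, on the same chromosome from 121588972 to 121632394, had 3541, 3540 and 3439 normalized reads in control and 3097, 3021 and 3087 in PELP1-KD. The groups did not overlap, and MCMBP fell by 0.19 on the log2 scale (SE 0.04, adjusted p = 0.000299, edgeR). In all, 7 of the 10 genes did not overlap between the groups, and neither did 58.8% of all tested genes.

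Because the members differ in length, their levels were compared as TPM. In the control libraries MCM7 was highest with 416 ± 3.37 TPM, followed by MCM2 with 230 ± 4.45, MCM5 with 169 ± 1.39 and MCM4 with 135 ± 2.97 (SD, n = 3 each). MCM3 (121 ± 1.5 TPM) and MCM6 (120 ± 3.5 TPM, SD, n = 3 each) came next, and their ranges overlapped. MCMBP followed with 56.4 TPM, and MCM8 (39.6 TPM) and MCM10 (37.1 TPM) overlapped in range, while MCM9 stood last with 2.69 TPM. In the PELP1-KD libraries no 2 neighbours in this order overlapped. There MCM6 came directly after MCM2 with 153 ± 1.02 TPM, above MCM5 (136 ± 3.56) and MCM4 (116 ± 2.66), and MCM3 was the lowest of the ring subunits with 83.6 ± 1.05 TPM (SD, n = 3 each). On the TPM scale, which lacks the correction for library composition, MCM7 did not overlap between the groups and was higher in PELP1-KD, with 428 ± 7.30 TPM (SD, n = 3).

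**Figure D2:**
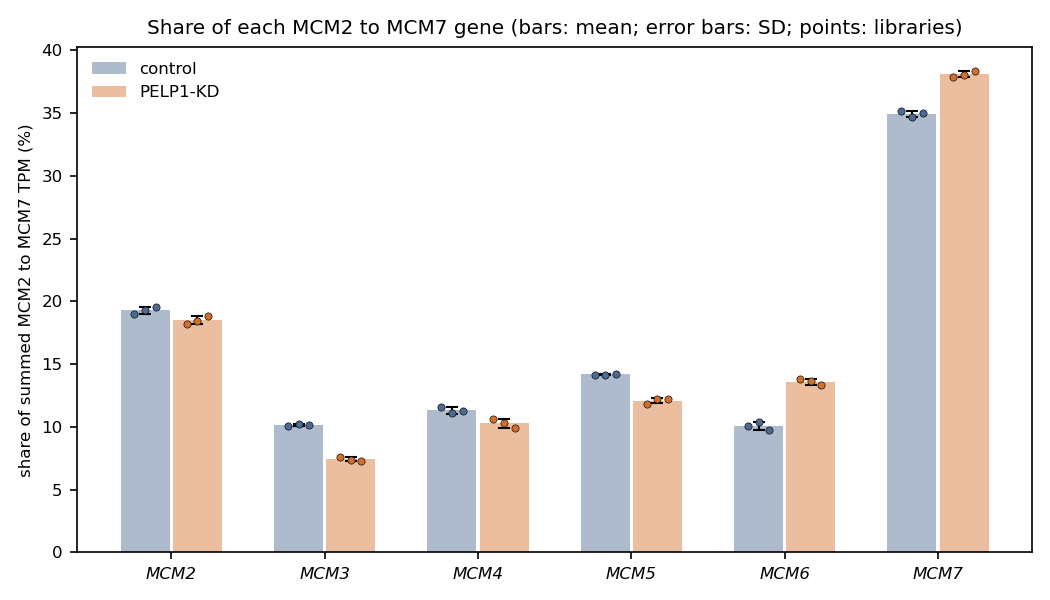
Share of each gene in the summed TPM of MCM2 to MCM7 (vertical axis, percent) in control (blue) and PELP1-KD (orange) libraries, with bars for the mean, error bars for the SD and points for the 3 libraries. The share of MCM3 lies lower in PELP1-KD (10.2% against 7.44%) and that of MCM6 higher (10.1% against 13.6%).

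The proteins of the ring are needed in equal number, so the balance of the 6 transcripts was compared within each library. The summed level of MCM2 to MCM7 was 1191 ± 5.18 TPM in control and 1124 ± 12 TPM in PELP1-KD (SD, n = 3 each), or 94.4% of control. Within that sum, MCM3 took 10.2% ± 0.112 in control and 7.44% ± 0.162 in PELP1-KD, and MCM6 took 10.1% ± 0.322 and 13.6% ± 0.235 (SD, n = 3 each). Normalized reads of MCM6 over MCM3, without adjustment for length, gave ratios of 1.2, 1.22 and 1.16 in control libraries. In PELP1-KD libraries the ratios were 2.18, 2.23 and 2.20, with a mean of 184% of the control mean. Per length, MCM6 had 120 TPM against 121 TPM for MCM3 in control, and 153 against 83.6 TPM in PELP1-KD. Relative to the geometric mean of the other 5 ring subunits, MCM3 changed by −0.48 and MCM6 by 0.58 on the log2 scale. MCM7 changed by 0.21, MCM5 by −0.21 and MCM4 by −0.10, and these 5 ratios did not overlap between the groups. Each gave p = 0.1 in a two-sided exact permutation test, the smallest p that 3 against 3 libraries allow, and 0.12 after adjustment over the 6 ratios. The ratio of MCM2 overlapped, with a difference of −0.01 (exact permutation p = 0.8).

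The other genes of the helicase pathway were drawn from lists written from general knowledge. Counts of calls in these lists stand beside 53.6% called over all tested genes, with 26.8% lower and 26.8% higher. With the replicate block 60.7% of all tested genes were called. DESeq2, with its own filter, called 6866 of all genes, against 7788 by edgeR. For counts at an unadjusted p below 0.05, no share over all genes is given. Being called therefore does not set a gene of these lists apart. Of 9 genes for origin licensing, 2 were called lower and 1 higher (2 and 2 with the replicate block), with a median log2 fold change of −0.01. GMNN, which encodes the licensing inhibitor geminin, had a log2 fold change of −0.19 and the loader CDC6 of −0.15. ORC6, a subunit of the origin recognition complex, rose from 1706 ± 36.6 to 2219 ± 34.1 normalized reads (n = 3 each, SD), with a log2 fold change of 0.38 (SE 0.04, adjusted p = 3.23e-07, edgeR). CDT1, which brings the ring to the origin, was not called (0.05, adjusted p = 0.415, edgeR). CDT1, and below GINS1 and CDC45, are named for their role and were chosen after their values were seen.

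Of 14 genes for helicase activation, 4 were called lower and 2 higher, and 6 and 2 with the replicate block. The GINS subunits, which bind the ring at the fork, differed among each other. GINS3 fell from 543 ± 47.1 to 381 ± 8.84 normalized reads (n = 3 each, SD), with a log2 fold change of −0.51 (SE 0.08, adjusted p = 1.18e-05, edgeR), and GINS2 had a log2 fold change of −0.24. GINS4 was higher (0.20, adjusted p = 0.00109) and GINS1 was not called (0.04, adjusted p = 0.512, edgeR). DONSON, which helps to place CDC45 and GINS, was lower (−0.26), and DBF4B, an activator of the kinase CDC7, was higher (0.20). CDC45 was not called (−0.08, adjusted p = 0.163, edgeR). The study took genes from these libraries for RT-qPCR, to represent its Myc, E2F and liver cancer pathways, and its primer list includes POLA2. Directions within these lists are therefore not independent evidence.

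Of 27 polymerase and fork genes, 7 were called lower and 5 higher, 11 and 6 with the replicate block and 7 and 3 with DESeq2, with a median log2 fold change of −0.08. The largest falls were those of POLA2 (−0.40), a subunit of the polymerase that starts new strands, RPA1 (−0.37), which coats single-stranded DNA, and RFC1 (−0.28), which loads the sliding clamp. POLD4 (0.42) and POLD1 (0.22), both subunits of polymerase delta, and WDHD1 (0.19), which links the helicase to the polymerase, rose. Of 8 genes for unloading the helicase after replication, none was called lower by edgeR or DESeq2 (2 with the replicate block, and 2 at an unadjusted p below 0.05) and 2 were called higher, TRAIP (0.27) and UFD1L (0.11). Of 5 recombination genes that work with MCM8 and MCM9, 2 were called lower, among them NBN (−0.14), and C17orf53 (0.19), which recruits this helicase, was higher. With the replicate block 2 of these 5 were lower and 3 higher, and DESeq2 called none of them, against 2 lower and 2 higher at an unadjusted p below 0.05 in edgeR.

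**Figure D3:**
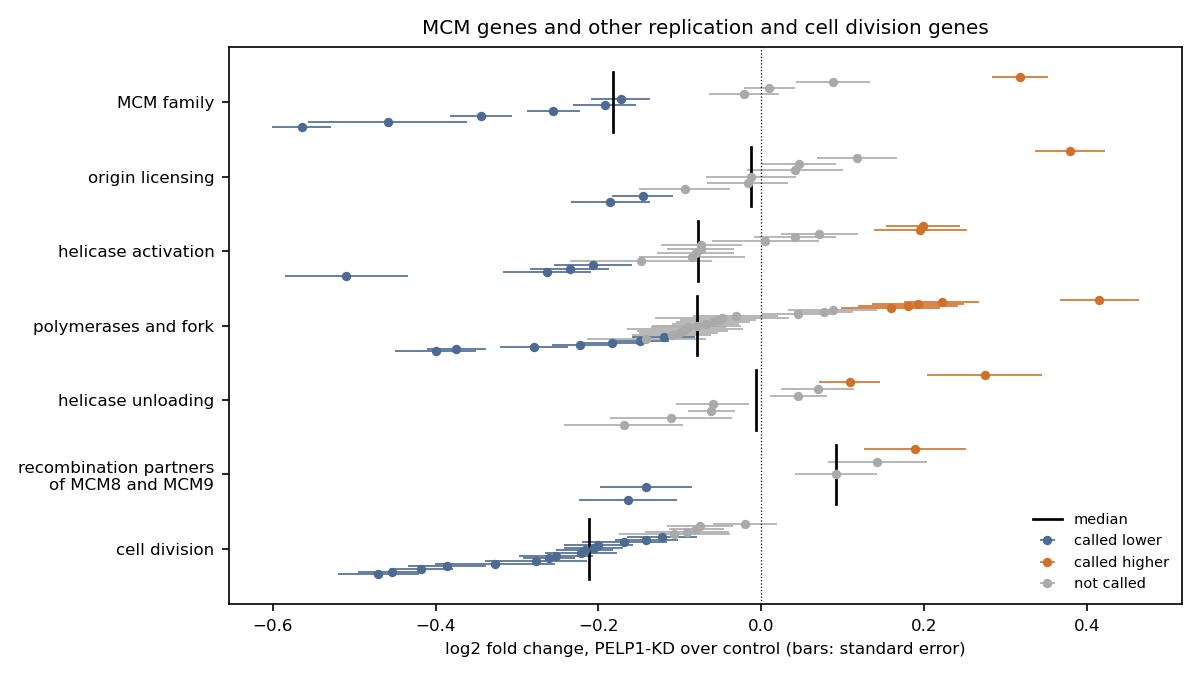
Log2 fold change of PELP1-KD over control (horizontal axis, with standard errors) for the 10 MCM genes and 6 lists of related genes, coloured by the edgeR call at an adjusted p below 0.05, with a black line at each median. The MCM genes spread from −0.56 to 0.32, while the 20 cell division genes all lie below 0, with a median of −0.21.

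A list of 20 cell division genes, compared as markers of cycling cells, had 15 called lower by edgeR (18 with the replicate block, 16 by DESeq2) and none higher in any of these fits or at an unadjusted p below 0.05, with a median of −0.21. Over all tested genes, edgeR called 26.8% lower and 26.8% higher, and 60.7% in either direction with the replicate block. DESeq2 called 6866 of all genes in either direction, against 7788 by edgeR. CCNB2, PLK1 and CENPF had log2 fold changes of −0.47, −0.45 and −0.42. The 15 called markers of cycling cells thus moved in the direction of the MCM genes that were lower and against MCM6. MCM7, MCM8 and MCM10 were not called, and neither were 5 of the 20 markers. The summed level of 6 of these markers was 648 to 667 TPM in control and 565 to 595 TPM in PELP1-KD, and MKI67 was not called (−0.08, adjusted p = 0.0509, edgeR), whereas the block made it pass (adjusted p = 0.00416). Their part in the MCM result was not tested.

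Since adjacent genes may change together, each MCM gene was set beside the tested genes within 1 Mb on either side in the coordinates of the tables. Over all tested genes, 26.8% were called lower and 26.8% higher, so called neighbours are common anywhere. Of the 12 neighbours of MCM3, 8 were called lower and 2 higher, with a median log2 fold change of −0.26, and 2 of them fell by more than MCM3. PAQR8, 77.3 kb from MCM3, fell from 1267 ± 53.7 to 56.4 ± 4.46 normalized reads (n = 3 each, SD), with a log2 fold change of −4.49 (SE 0.09, adjusted p = 6.47e-19, edgeR). PKHD1 (−1.95) and ELOVL5 (−0.32) were also lower, while GSTA1 (0.46) and ICK (0.41) were higher. The 10 neighbours of MCM6 went both ways, with 3 called lower and 2 higher and a median of −0.13. Over 5 Mb on either side, the median was −0.22 around MCM3 and −0.03 around MCM6.

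**Figure D4:**
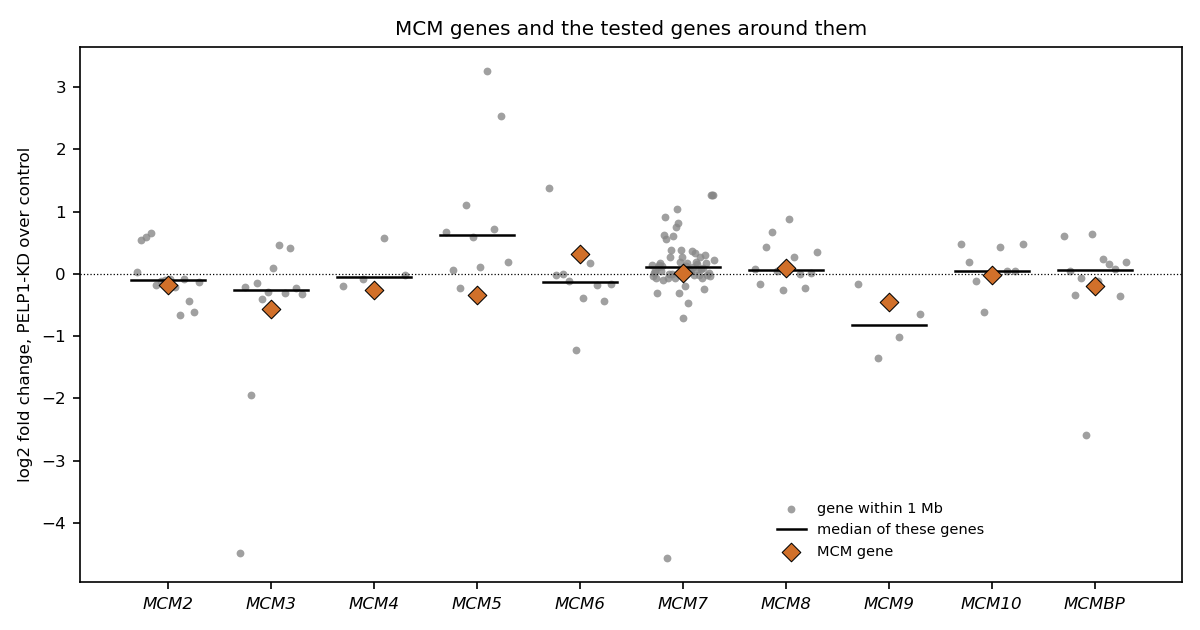
Log2 fold change of PELP1-KD over control (vertical axis) for each MCM gene (diamond) and for the tested genes within 1 Mb of it (grey points, in order of distance from the MCM gene, with their median as a black line). MCM5 lies below all 10 of its neighbours within 1 Mb, and the 4 neighbours of MCM9 lie below 0 like MCM9 itself.

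At MCM5 the neighbours went the other way. Of 10, 8 were called higher and 1 lower, with a median of 0.63, and MCM5 lay below each of them. Over all tested genes, 26.8% were called higher and 26.8% lower. Over 5 Mb the median around MCM5 was 0.12, with 49 of 111 genes called higher and 24 lower, and 11 genes lay below MCM5. HMOX1, the heme oxygenase gene 5.91 kb from MCM5, rose from 3050 ± 109 to 4853 ± 244 normalized reads (n = 3 each, SD), with a log2 fold change of 0.67 (SE 0.04, adjusted p = 1.09e-10, edgeR). At MCM9 all 4 neighbours were called lower, with a median of −0.83, but over 5 Mb the median was −0.10, with 11 of 30 genes called lower and 6 higher. HMOX1 was chosen after its values were seen.

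Divergent partners, whose own start lies within 1000 bases of that of an MCM gene on the other strand, were found for 3 members. PRKDC, which encodes the catalytic subunit of DNA-dependent protein kinase, starts 20 bases from MCM4. It had a log2 fold change of −0.19 (SE 0.04, adjusted p = 0.000152, edgeR), and MCM4 was lower as well. TRMT6, 125 bases from MCM8, did not overlap between the groups but was not called (0.08, adjusted p = 0.158), and neither was AP4M1, 297 bases from MCM7 (−0.04, adjusted p = 0.621, edgeR).

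Among other symbols that start with MCM, MCM3AP, which encodes a protein that binds MCM3 and an mRNA export factor, was lower (−0.22, SE 0.04, adjusted p = 0.000245, edgeR). Its antisense gene MCM3AP-AS1 was rare, with 80 to 94 normalized reads in control and 111 to 116 in PELP1-KD, and was called higher (0.39, SE 0.13, adjusted p = 0.0204, edgeR). The genes whose log2 CPM (reads scaled by library size) followed the mean of MCM2 to MCM7 most closely over the 6 libraries were C9orf69, SLC29A1, PGAM5, RPS10 and WIPI2, each with a Pearson r of 0.999. These 6 points form 2 groups and share library and depth, so the value mainly reflects the difference between the groups.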

How the data were processed

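Total RNA of 3 control and 3 PELP1-KD libraries was sequenced. By the paper's methods, reads were mapped to hg19 with TopHat2 and counted with HTSeq. The headers of the tables name featureCounts v1.5.0-p1 instead, run by strand on hg19 exons with a minimum mapping quality of 2, with reads of several places or genes shared as fractions. What the authors deposited are therefore estimated counts of each gene, without normalization. The submitters' processing notes name HISAT2 and featureCounts. The sample protocols describe paired reads after removal of ribosomal RNA, whereas the design text of the series describes single reads of selected mRNA.

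Counts were rounded to whole numbers. Of 23228 genes, 14537 passed filterByExpr and were tested with edgeR 4.0.16 (TMM, glmQLFit with robust estimation, glmQLFTest, R 4.3.3) with Benjamini-Hochberg adjustment. The standard error (SE) was taken from the fold change and its F statistic. Normalized reads were reads divided by the effective library size, after setting the geometric mean of these sizes to 1. The fit was tested on simulated counts.

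The members, lists and named genes (members, PELP1, other MCM symbols, divergent partners, genes overlapping members, the 3 largest called changes per list and direction, the smallest p values near MCM3, the 5 closest profiles) were chosen with earlier results of these data known. Alternatives were DESeq2 1.42.0, 2 other normalizations, 2 other filters, an adjusted p below 0.01, the replicate block and each library left out. The study's own tool was DESeq2. The replicate numbers of the labels were checked for pairing. The deviations from the group means of same-numbered libraries correlated by 0.336, 0.247 and 0.666 over 6370 genes, which are no replicates themselves. Each exceeded 0.1, so the numbers of the labels were taken to pair the libraries. The main fit did not use this pairing, which entered only through the replicate block as an alternative. Control 2 with PELP1-KD 1 reached 0.418 and control 1 with PELP1-KD 2 reached 0.244, so that numbers 1 and 2 are not set apart from each other, whereas number 3 is. Promoter sequences came from RefSeq (GRCh38.p14), and gene coordinates from the tables (hg19). Nothing was converted between the builds. Some genes of the lists and markers are not reported here.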

Additional observations from a re-analysis of the deposited data

How the results depend on the processing

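Under the 13 alternatives, which were other normalizations, filters, tools and thresholds and each library left out, 7 or 8 of the 10 MCM genes were called, against 7. MCM2, MCM3, MCM4, MCM5, MCM6, MCM9 and MCMBP kept direction and call in all 13. MCM3 lay between −0.58 and −0.55 and MCM6 between 0.31 and 0.34 on the log2 scale. MCM7 turned to −0.02 without replicate 3 of PELP1-KD, uncalled in every fit. With the replicate block, 8 of the 10 genes and 8828 of all genes (60.7%) were called, against 7788. MCM8 was added by the block and by leaving out replicate 3 of PELP1-KD, and no other member's call changed. The replication lists had 26 called genes, 19 at an adjusted p below 0.01 and 38 with the block. With a library left out they had between 21 and 34. Of all genes, 6038 to 8828 were called under the 13 alternatives, the lowest count at an adjusted p below 0.01. With a library left out, 6766 to 7938 of all genes were called. The median around MCM3 moved from −0.26 to −0.22 with the window of 5 Mb. The ratio of MCM3 to the other ring subunits lay between −0.49 and −0.46 with a library left out. Depth limited MCM9 most, at 147 to 285 reads per library.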

Other observations

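The genes around MCM5 and MCM9 were chosen for description with their values already known. Within 1 Mb of MCM5, 4 genes of the APOL family of apolipoproteins, which are known to respond to interferon, were called higher. APOL1 rose from 193 ± 3.55 to 1122 ± 37.9 normalized reads (n = 3 each, SD), with a log2 fold change of 2.54 (SE 0.07, adjusted p = 1.42e-16, edgeR), and APOL6 and APOL2 had log2 fold changes of 1.10 and 0.72. APOL3 was rare, with a mean of 1.25 normalized reads in control and 13.2 in PELP1-KD. Near MCM9, MAN1A1, which encodes a mannosidase of the Golgi, fell from 12487 ± 469 to 8002 ± 271 normalized reads (n = 3 each, SD), with a log2 fold change of −0.64 (SE 0.04, adjusted p = 1.49e-11, edgeR). FAM184A, 24.7 kb from MCM9, had a log2 fold change of −1.34, and ASF1A, a histone chaperone gene within the span of MCM9 on the other strand, of −0.16.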
